A study of Mus musculus with 12 samples.

Results

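Day 10 was compared with Day 5 in MC3T3-E1 cells, a mouse preosteoblast line from skull bone, to describe which genes differed when growth-arrested cells entered differentiation. Differences are between 3 Day 10 and 3 Day 5 arrays, 6 of the 12 arrays of a time course. The spread behind each SE and p-value came from all 12 arrays. The submitters call the Day 10 cultures differentiating osteoblasts and the Day 5 cultures growth-arrested preosteoblasts. Both groups, like the Day 2 and Day 28 cultures, carried 8-glycerol phosphate and ascorbic acid, so Day 5 is an earlier time under the same treatment and not an untreated control. Each array held cDNA of the cells in Cy3 and of a commercial mouse reference RNA (Stratagene) in Cy5, with no dye exchange, and values are log2 ratios of cells to reference on 17504 rows, each array centred on its median. Whether replicates were separate cultures is not labelled. P-values therefore cover array-to-array spread, which may be technical. RNA came from whole cultures of 1 cell line, in which fewer cells of a type and less RNA per cell cannot be told apart.

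Osteoblasts are the bone-forming cells. In culture, ascorbic acid lets them fold and secrete collagen, and a glycerol phosphate supplies phosphate for mineral once the matrix is laid down. Textbook accounts have them leave the cell cycle, build and crosslink a collagen matrix under the transcription factors Runx2 and Sp7, and then raise alkaline phosphatase and mineral-binding proteins such as bone sialoprotein. Late osteoblasts also make collagenases that remodel this matrix.

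Day 10 replicate 3 and Day 5 replicate 2 stood apart from the other arrays of their days. Day 10 replicate 3 correlated at 0.795 on average with its day, Day 5 replicate 2 at 0.838, and the 4 remaining arrays at 0.856 to 0.868. On Day 10 replicate 3, 4.76% of rows lay over 1 log2 unit from the mean of the other Day 10 arrays, and on Day 5 replicate 2 it was 2.13% of rows, against 0.886% to 1.47% on the other 4. Counts and differences are given with all arrays, and the values without these 2 stand beside most of them. These 2 were set apart on these same values, and dropping deviating arrays tends to narrow the spread. SEs and adjusted p-values without them can therefore be too small and are no independent support. The ratio's direction is not stated by the labels and was read as positive where the cells exceeded the reference. On average over the 12 arrays, 17 of 21 genes typical of mesenchymal cells lay above 0 (median 1.39), against 9 of 21 genes of other lineages (median -0.04). This makes the reading likely. If the ratio ran from reference to cells, all directions here would reverse.

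Few rows differed between the days. By limma on all 12 arrays, with Benjamini-Hochberg adjustment over all rows and a threshold of 0.05, 26 rows (0.149%) passed. Of these, 21 (0.12%) were higher and 5 (0.0286%) lower on Day 10, and 22 named a gene. The largest rises with a gene name were those of F13a1, Mmp13, Igf2, Cd200, Mfap5, Agt and Apod. Of the 5 falls the largest belonged to a row with no gene name, and the next to Tnnc1, a troponin gene. In all 26 rows the 3 Day 10 arrays did not overlap the 3 Day 5 arrays. Over all rows, the Day 10 arrays lay wholly above those of Day 5 in 6.11% and wholly below them in 6.68%.

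**Figure D1:**
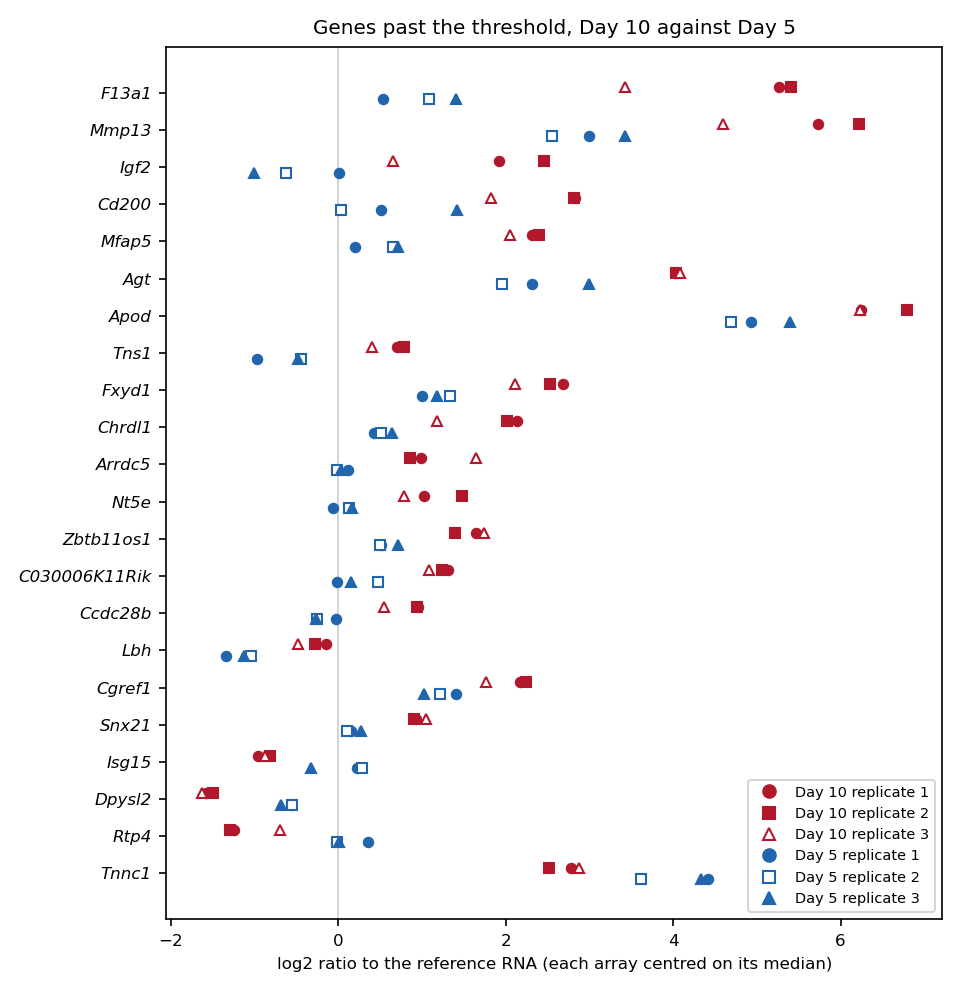
Log2 ratio to the reference RNA of the 22 named genes that passed, by array, with Day 10 in red above Day 5 in blue and open symbols for the arrays that stood apart. No gene's Day 10 and Day 5 arrays overlap, and the open triangle of Day 10 replicate 3 lies nearest to Day 5 for F13a1, Mmp13 and Igf2.

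F13a1 encodes the A subunit of factor XIII, a transglutaminase that crosslinks fibrin, fibronectin and other matrix proteins. It stood at 5.27, 5.41 and 3.43 on Day 10, against 0.53, 1.08 and 1.41 on Day 5. The lowest Day 10 array, replicate 3, was still well above the highest Day 5 array. The rise was 3.70 on the log2 scale, or 13.0-fold (SE 0.41, limma adjusted p = 0.00416), and without the 2 arrays it was 4.38 (SE 0.27, adjusted p = 3.03e-05).

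Mfap5 encodes a glycoprotein of the microfibrils that surround elastic fibres. Its values were 2.31, 2.40 and 2.05 on Day 10, against 0.20, 0.65 and 0.72 on Day 5. The arrays of each day lay close together, Day 10 replicate 3 included. The rise of 1.73 (SE 0.15, limma adjusted p = 0.00062) was 1.90 without the 2 arrays (adjusted p = 0.000622). Of the 22 named genes, Mfap5 was the only one to pass in all 12 fits that leave out 1 array. It missed, as every row did, with only the 6 arrays of Day 5 and Day 10 in the fit.

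Mmp13 encodes collagenase 3, which cleaves fibrillar collagen and is made by hypertrophic chondrocytes and late osteoblasts. It read 5.73, 6.22 and 4.60 on Day 10, against 2.99, 2.55 and 3.43 on Day 5. All Day 10 arrays were higher, replicate 3 by the least. The rise of 2.53 (SE 0.34, limma adjusted p = 0.0171) was 2.77 without the 2 arrays (adjusted p = 0.000622). Its proximal promoter is printed because it holds known sites for osteoblast regulators. RefSeq's GRCm38.p6 promoter table gives the 250 bases before the start at chr9:7272264-7272513, plus strand. In capitals are AACCACA, the core bound by Runx proteins, from -119 to -113, and TGACTCA, a match to the AP-1 motif TGANTCA, from -35 to -29.
Mmp13: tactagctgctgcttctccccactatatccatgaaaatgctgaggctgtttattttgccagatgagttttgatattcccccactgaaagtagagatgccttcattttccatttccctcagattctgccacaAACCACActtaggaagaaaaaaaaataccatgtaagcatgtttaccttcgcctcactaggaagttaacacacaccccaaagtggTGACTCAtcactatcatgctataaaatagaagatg
Both motifs were searched on both strands, and they occur in 4.46% and 6.87% of the 27025 promoters in that table. A match describes the letters and not binding. Among the 14 promoters found for the 18 named genes that rose, 1 held the Runx motif and 2 the AP-1 motif.

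Among secreted signals, Igf2, an insulin-like growth factor abundant in bone, read 1.92, 2.46 and 0.65 on Day 10, against 0.01, -0.62 and -1.00 on Day 5. Day 10 replicate 3 was the lowest of its day and still above every Day 5 array. The SD of Igf2 was 0.51 on Day 5 and 0.93 on Day 10, against 0.07 on Day 2 and 0.10 on Day 28. The rise was 2.22 (SE 0.36, limma adjusted p = 0.033), and 2.69 without the 2 arrays (adjusted p = 0.0015). Agt, which encodes angiotensinogen, was 4.03, 4.04 and 4.08 on Day 10, against 2.32, 1.96 and 3.00 on Day 5. Its Day 10 arrays had an SD of 0.03, and the spread lay in Day 5. The rise of 1.62 (adjusted p = 0.0171) was 1.37 without the 2 arrays (adjusted p = 0.0328). Apod, a secreted lipocalin that carries small lipids, was 6.24, 6.79 and 6.23 on Day 10, against 4.93, 4.69 and 5.39 on Day 5. It rose by 1.42 (adjusted p = 0.033), a call lost without the 2 arrays (1.36, adjusted p = 0.07). Chrdl1, a secreted antagonist that binds BMPs, was 2.14, 2.02 and 1.18 on Day 10, against 0.43, 0.51 and 0.64 on Day 5, and rose by 1.26 (adjusted p = 0.0451), or 1.55 without the 2 arrays (adjusted p = 0.00308). It passed in 1 of the 12 fits that leave out 1 array, and missed with the replicate block and with the rows of a gene averaged. Igf2 passed in 2 of the 12, Agt in 9 and Apod in 4.

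Cd200, a membrane glycoprotein that restrains myeloid cells through its receptor, was 2.83, 2.82 and 1.83 on Day 10, against 0.51, 0.03 and 1.42 on Day 5. It rose by 1.84 (limma adjusted p = 0.0451), with a single Day 5 array, replicate 3, near the Day 10 range. Fxyd1, a regulator of the sodium pump, rose by 1.26 (adjusted p = 0.0171), and Nt5e, the ectonucleotidase CD73 that makes adenosine, by 1.02 (adjusted p = 0.0332). Tns1, which ties integrins to actin, rose by 1.26 (adjusted p = 0.033). All 4 kept their calls without the 2 arrays, with differences of 1.86 for Cd200, 1.51 for Fxyd1, 1.20 for Nt5e and 1.47 for Tns1. Of the 12 fits that leave out 1 array, Fxyd1 passed in 9, Tns1 in 3 and Cd200 and Nt5e in 2 each. Cd200, Nt5e and Tns1 also missed with the replicate block and with the rows of a gene averaged. Lbh, a transcriptional cofactor, rose by 0.86 and Cgref1, a secreted calcium-binding protein, by 0.84, with adjusted p of 0.0451 and 0.0468, and both kept their calls without the 2 arrays. So did Ccdc28b (0.99) and the unannotated C030006K11Rik (1.01). Of the 12 fits that leave out 1 array, C030006K11Rik passed in 8, Ccdc28b in 3, Lbh in 2 and Cgref1 in 1. Arrdc5 (1.12), Zbtb11os1 (1.02) and the sorting nexin gene Snx21 (0.79) passed with all arrays and missed without the 2, at adjusted p of 0.103, 0.108 and 0.086.

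Of these genes 6 had another row on the array. The other rows of Tns1, Lbh, Nt5e and Chrdl1 differed by 0.60, 0.96, 0.81 and 0.92 and did not pass. Those of Ccdc28b and Snx21 differed by 0.05 and -0.08, so the rows of these genes disagree. Unnamed rows that passed, 3 higher and 1 lower, cannot be assigned to a gene here, and the lower one had the largest fall of all rows (-2.17, limma adjusted p = 0.0171).

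Of the falls, Tnnc1, which encodes the troponin C of heart and slow skeletal muscle, read 2.78, 2.52 and 2.87 on Day 10, against 4.42, 3.62 and 4.33 on Day 5. The Day 10 arrays were all lower, and Day 5 replicate 2 was the nearest to them. It fell by 1.40 (SE 0.21, limma adjusted p = 0.0223), and without the 2 arrays it fell by 1.73 (adjusted p = 0.00244). It was the 1 gene of 25 measured skeletal muscle markers that passed, and the list's median was -0.06 (-0.04 without the 2 arrays). Rtp4, an interferon-induced chaperone of membrane receptors, read -1.25, -1.29 and -0.69 on Day 10, against 0.35, -0.02 and 0.01 on Day 5, and fell by 1.19 (adjusted p = 0.0171), and fell by 1.45 without the 2 arrays (adjusted p = 0.00244). Dpysl2, a microtubule-associated phosphoprotein, fell by 0.97 (adjusted p = 0.033), and missed without the 2 arrays (-0.91, adjusted p = 0.0893).

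The calls that hold with and without the arrays that stood apart are few. Counts were 26 with all arrays, 83 (0.474%) without Day 10 replicate 3, 11 (0.0628%) without Day 5 replicate 2 and 52 (0.297%) without both. Without both, 40 rows (0.229%) were higher and 12 (0.0686%) lower. In all 4 fits 10 rows passed, 7 higher and 3 lower. The named ones are Mfap5, F13a1, Agt, Fxyd1 and C030006K11Rik among the rises and Rtp4 and Tnnc1 among the falls. With only the 6 arrays of Day 5 and Day 10 in the fit, 0 rows passed. Every call thus rests on a spread that takes in the Day 2 and Day 28 arrays. Leaving out Day 5 replicate 1 gave 1 row and Day 5 replicate 3 gave 17. Each of Day 10 replicates 1 and 2, left out, gave 4. For Day 2 it was 33 when replicate 1 was dropped, 14 when replicate 2 was and 16 when replicate 3 was. Dropping any Day 28 array gave 12. All 26 rows passed without Day 10 replicate 3, and 10 of them passed without Day 5 replicate 2 alone, where Mmp13 missed at an adjusted p of 0.059. Of the 26, 19 passed without both arrays. Those lost were Apod, Arrdc5, Zbtb11os1, Snx21, Isg15, Dpysl2 and 1 unnamed row. No named gene that passed with all arrays changed sign under any alternative, but the alternatives reuse the same arrays and are no independent check.

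**Figure D2:**
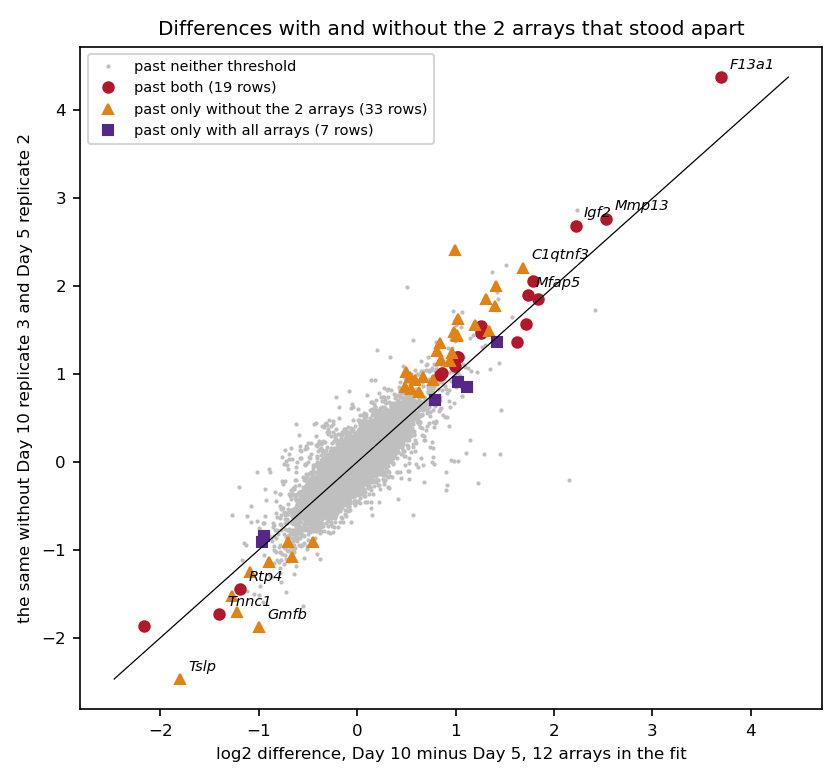
Log2 difference of each row, Day 10 minus Day 5, with all 12 arrays in the fit (x axis) and without Day 10 replicate 3 and Day 5 replicate 2 (y axis), where the line marks equal values. In the plot 19 rows pass in both fits, 33 only without the 2 arrays and 7 only with all of them.

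Leaving out both arrays brought 33 further rows past the threshold. Their adjusted p-values can be too small, since the arrays dropped were those that deviated most from their days. All 52 had the same sign with all arrays, which says little, since the fits share most of their arrays. In 34 of the 52 the full set of 6 arrays did not overlap between the days. Over all rows Day 10 lay wholly above in 6.11% and wholly below in 6.68%, but the 52 were picked on arrays of this set. C1qtnf3, a secreted adipokine of the C1q family also called cartonectin, read 2.34, 2.56 and 0.67 on Day 10, against 0.43, 0.05 and 0.04 on Day 5. Day 10 replicate 3 lay between the others of its day and the Day 5 arrays. The difference was 1.68 with all arrays (limma adjusted p = 0.0918), and the rise without the 2 arrays was 2.21 (adjusted p = 0.000281). Aqp1, a water channel, read 1.96, 2.11 and 0.51 on Day 10, against 0.24, 0.27 and 0.13 on Day 5. It rose by 1.85 without the 2 arrays (adjusted p = 0.000622), against a difference of 1.31 with all of them (adjusted p = 0.141). Il33, an alarmin cytokine of the IL-1 family, rose by 1.63 there (adjusted p = 0.00423, against 0.256 with all arrays). Its Day 10 values of -0.73, -0.69 and -1.84 overlap the Day 5 values of -2.54, -1.64 and -2.14. Clec3b, the plasminogen-binding tetranectin, rose by 2.00 there, Akap12, a kinase scaffold, by 1.78 and Selenbp2 by 1.56. Mustn1, a small nuclear protein of muscle and skeleton, rose by 1.49 and Igfbp4, which sequesters insulin-like growth factors, by 1.48. From Clec3b on, the adjusted p lay between 0.0343 and 0.0463 in that fit. With all arrays these differences were 1.41, 1.40, 1.20, 1.34 and 0.98, with adjusted p from 0.0685 to 0.652. Each passed in 1 of the 12 fits that leave out 1 array. Igfbp4 overlapped too, since its Day 10 values of 2.71, 3.16 and 0.33 overlap the Day 5 values of 1.57, 0.36 and 1.33.

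Falls that passed only without the 2 arrays were led by Tslp, a cytokine of epithelial and stromal cells. It read -3.58, -3.36 and -1.73 on Day 10, against -1.03, -1.28 and -0.97 on Day 5. Every Day 10 array was lower, replicate 3 by the least, and it fell by 2.47 without the 2 arrays (limma adjusted p = 0.00264), against a difference of -1.80 with all of them (adjusted p = 0.0934). Gmfb, a regulator of actin branching, fell by 1.88 there, but its Day 10 values of -2.74, -2.58 and -0.85 overlap the Day 5 values of -0.84, -1.61 and -0.72. Vstm5, a membrane protein, fell by 1.71, the histone gene H4c8 by 1.52, Ccar1, a transcription coactivator, by 1.25, Plod3, a lysyl hydroxylase and glycosyltransferase of collagen, by 1.14 and 5031425E22Rik by 0.91. The Day 10 values of 5031425E22Rik, 0.12, 0.30 and -0.06, overlap its Day 5 values of 1.12, 0.23 and 1.12. From Vstm5 on, the adjusted p of these 5 genes lay between 0.0128 and 0.0475 in that fit. With all arrays the differences from Gmfb on were -1.00, -1.22, -1.27, -1.09, -0.90 and -0.70, with limma adjusted p from 0.0594 to 0.498. Of the 12 fits that leave out 1 array, H4c8 passed in 2, and Tslp and the others in 1 each.

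The classical osteoblast genes that were measured showed no call. Of 22 genes listed for osteoblast differentiation and mineralization 16 were measured by name, and by limma 0 passed, with all arrays or without the 2, with 6 at an unadjusted p under 0.05. Over all rows 8.99% had such a p. Their median difference was 0.17, against -0.01 over all rows, with 11 above 0. Over all rows 47.9% lay above 0, and 49.6% without the 2 arrays. Osteocalcin and osteopontin were not among the 16 measured genes, so no value is given for them. Alpl, alkaline phosphatase, read 2.11, 1.68 and 0.15 on Day 10, against 1.65, 1.58 and 0.27 on Day 5. Each day held 1 low array, and the difference was 0.14 with a 95% interval from -0.78 to 1.07 (-0.02 after quantile normalization). Without the 2 arrays it was 0.93 (adjusted p = 0.349). That fit drops the low Day 10 array, replicate 3, and keeps the low Day 5 array, which is also replicate 3. Ibsp, bone sialoprotein, read 4.37, 3.74 and 0.74 on Day 10, against 2.38, 1.27 and 2.27 on Day 5. It was highest on Day 10 replicates 1 and 2 and lowest of all on replicate 3, with a difference of 0.97 (adjusted p = 0.741) that was 1.72 without the 2 arrays (adjusted p = 0.103). Omd, osteomodulin of mineralizing matrix, read 5.71, 5.71 and 4.88 on Day 10, against 4.15, 4.06 and 4.85 on Day 5 (1.07, adjusted p = 0.161, and 1.20 without the 2 arrays, adjusted p = 0.0893). Its arrays narrowly separate. Sparc, the collagen-binding osteonectin, differed by 0.84 (0.96 without the 2), Pth1r, the parathyroid hormone receptor, by 0.82 (0.93) and Dmp1, a mineral-binding matrix protein, by 0.69 (0.25). Col1a1 and Col1a2, the chains of type I collagen, differed by -0.54 and -0.38, and by -0.30 and -0.09 without the 2 arrays. Among osteoblast transcription factors, 18 of 20 were measured, 0 passed by limma, their median was 0.02 (-0.16 without the 2 arrays) and 1 had an unadjusted p under 0.05. Runx2 was not among the 18, so its level is not known here. Sp7, or osterix, read 3.23, 3.43 and 2.26 on Day 10, against 2.84, 2.63 and 2.85 on Day 5, with an interval of the difference from -0.74 to 1.15, and the difference of 0.20 was -0.05 after quantile normalization and 0.49 without the 2 arrays (adjusted p = 0.792).

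Of 33 measured collagen genes, 22 lay above 0 and 0 passed with all arrays by limma, with 9 at an unadjusted p under 0.05. Such a p was found for 8.99% of all rows. The median was 0.06 with all arrays and 0.28 without the 2, and in 7 genes (21.2%) all Day 10 arrays lay above all Day 5 arrays, with 0 the other way. Over all rows 6.11% lay wholly above and 6.68% wholly below, and 47.9% had a difference above 0. Col15a1, a basement membrane collagen, read 5.33, 5.17 and 6.07 on Day 10, against 2.60, 2.27 and 4.44 on Day 5. Here Day 10 replicate 3 was the highest, and Day 5 replicate 3 stood well above the other Day 5 arrays. The difference was 2.42 (SE 0.47, adjusted p = 0.0685), and 1.73 without the 2 arrays (adjusted p = 0.214). Col11a1, a fibril-nucleating collagen of cartilage and bone, differed by 1.07 (1.11 without the 2 arrays), Col5a3 by 0.83 (0.58), Col4a2 by 0.64 (0.69) and Col16a1 by 0.63 (0.65). Col18a1, the source of endostatin, read -0.92, -0.88 and -0.93 on Day 10, against -1.60, -1.39 and -2.07 on Day 5. It differed by 0.77 with all arrays (adjusted p = 0.0751) and rose by 0.93 without the 2 (adjusted p = 0.0457).

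In the remaining matrix lists F13a1, Mfap5 and Mmp13 were the only calls with all arrays. Collagen modification and crosslinking, with 21 genes measured, had a median of 0.05 (0.04 without the 2 arrays). Microfibrils, elastic fibres and adhesive matrix, with 33, had a median of -0.01 (0.04 without the 2), and Fbln5, a fibulin needed for elastic fibres, differed by -0.69 (limma adjusted p = 0.0685), and by -0.76 without the 2 (adjusted p = 0.0893). Small leucine-rich proteoglycans, with 10, had a median of 0.15, or 0.31 without the 2 arrays. Fmod, fibromodulin, which steers collagen fibril assembly, read 4.68, 5.39 and 3.88 on Day 10, against 2.27, 2.93 and 2.06 on Day 5. The days do not overlap, and the difference of 2.23 (SE 0.51) had an adjusted p of 0.114, and was 2.87 without the 2 arrays (adjusted p = 0.0777). Bgn, biglycan, differed by 0.47 (0.52 without the 2). Proteases and inhibitors, with 26, had a median of 0.05 in both fits, with Plat, tissue plasminogen activator, at 0.84 (0.74 without the 2), Htra1, a serine protease, at 0.75 (0.88) and Ctsk, cathepsin K, at 0.77 (0.95), none of the 3 past.

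Single genes passed in the growth factor pathways. With all arrays, 1 of 18 measured genes around the insulin-like growth factors rose, Igf2, and 2 without the 2 arrays, Igf2 and Igfbp4, and the median was 0.02 and 0.21. The binding protein genes Igfbp7, Igfbp6 and Igfbp2 differed by 1.06, 0.84 and 0.49, with limma adjusted p of 0.0892, 0.0892 and 0.513, and in each all Day 10 arrays lay above those of Day 5. Without the 2 arrays these differences were 0.84, 0.71 and 0.37. Of the 18 genes, 5 (27.8%) lay wholly above on Day 10 and 0 wholly below, against 6.11% and 6.68% of all rows. Igf1 differed by -0.02, with an interval from -0.87 to 0.83, and by 0.27 without the 2 arrays and 0.13 with the spread of the arrays made equal. In the BMP and TGF-beta pathway 1 of 45 rose, Chrdl1. The BMP target genes Id1 and Id2 differed by -0.47 and -0.61, and by -0.38 and 0.00 without the 2 arrays. Of 48 Wnt pathway genes 0 passed by limma, with an unadjusted p under 0.05 for 3, which 8.99% of all rows had. The receptor genes Fzd8 and Fzd9 differed by 0.60 and 0.65 (0.60 and 0.78 without the 2). Complement and acute phase genes had a median of 0.10, and 0.25 without the 2 arrays, with 0 of 19 past (3 at an unadjusted p under 0.05). C1s1 and C1ra, the proteases of the first complement component, differed by 1.13 and 0.69 and Cp, ceruloplasmin, by 0.61, each with the Day 10 arrays above those of Day 5. Without the 2 arrays these were 1.07, 0.62 and 0.46. Of the 19 genes, 4 (21.1%) lay wholly above on Day 10 and 0 wholly below. In the renin-angiotensin list Agt was the 1 of 6 measured genes that rose, while Agtr2, a receptor of angiotensin II, differed by -0.60 (-0.56 without the 2 arrays).

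Genes of cholesterol synthesis and uptake were mostly lower on Day 10 by value, without a call. Of 17 measured genes 16 lay below 0, with a median of -0.46, against -0.01 over all rows. Without the 2 arrays the median was -0.37 and 14 of the 17 were below 0, and without Day 10 replicate 3 alone the median was -0.26. By limma 0 passed, and 10 had an unadjusted p under 0.05, which 8.99% of all rows had. Dhcr7, the last enzyme on the way to cholesterol, read 0.39, 0.61 and -0.14 on Day 10, against 1.18, 1.18 and 0.98 on Day 5 (-0.83, limma adjusted p = 0.109, and -0.58 without the 2 arrays, adjusted p = 0.26). Fdps, farnesyl diphosphate synthase, read 0.50, 0.93 and 0.37 on Day 10, against 1.50, 1.32 and 1.11 on Day 5 (-0.71, adjusted p = 0.118, and -0.59 without the 2, adjusted p = 0.278). In both genes each Day 10 array lay below each Day 5 array. The same held narrowly for Cyp51, Idi1 and Msmo1, 5 genes in all (29.4%), against 6.68% of all rows. The highest Day 10 and lowest Day 5 values were 1.62 and 1.68 for Cyp51, 0.97 and 0.98 for Idi1 and 0.97 and 1.03 for Msmo1. For Cyp51 and Idi1 the lowest array by far was Day 10 replicate 3. Without the 2 arrays Cyp51 differed by -0.27, Idi1 by -0.37 and Msmo1 by -0.40. Srebf2, the master regulator of the pathway, differed by -0.55 (-0.54 without the 2). Of the 16 fatty acid synthesis genes 13 lay below 0 (median -0.21, or -0.24 without the 2 arrays), and by limma 0 passed, with 5 at an unadjusted p under 0.05. Among them were Fasn, fatty acid synthase, at -0.56 (-0.43 without the 2) and Acly, which supplies its acetyl-CoA, at -0.51 (-0.31).

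**Figure D3:**
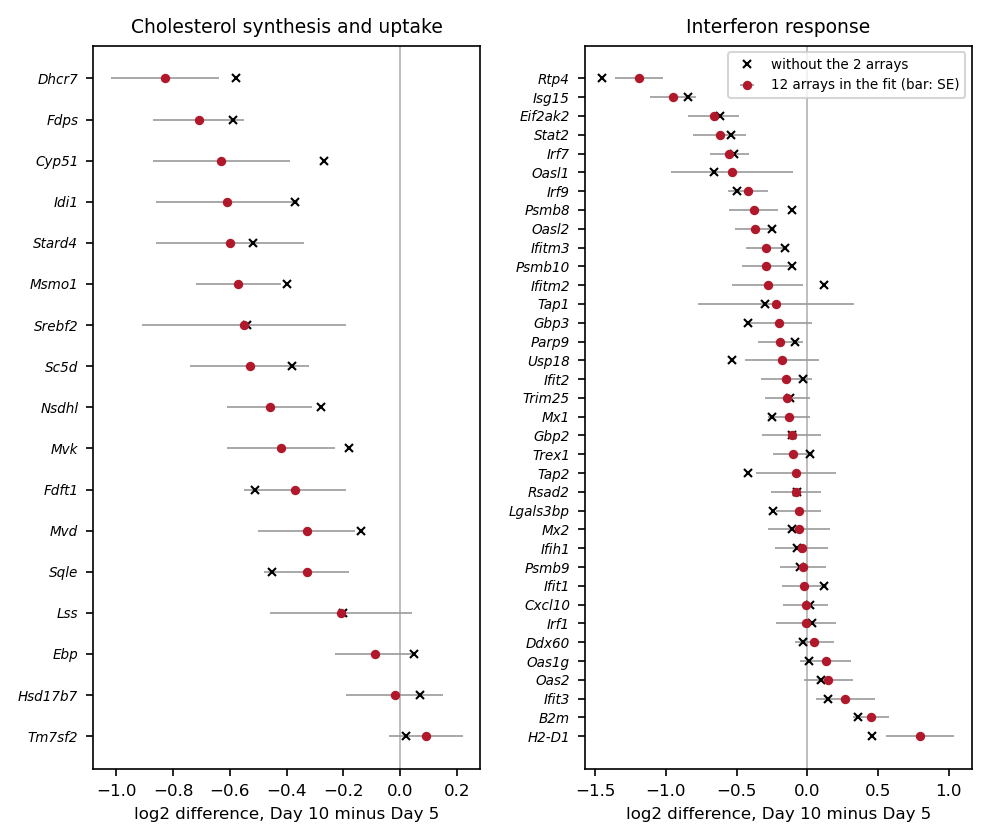
Log2 difference, Day 10 minus Day 5, of each measured gene of cholesterol synthesis and uptake (left) and of the interferon response (right), as points with the SE of the fit with all arrays and as crosses without the 2 arrays. All but 1 cholesterol gene lie below 0, and Rtp4 and Isg15 are the lowest interferon genes.

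Promoters of the cholesterol genes are shown because the CCAAT box, bound by NF-Y, works beside sterol regulatory elements in this pathway. Of 13 with a promoter in the RefSeq table, 12 (92.3%) held CCAAT on either strand in the 250 bases before the start, against 34.5% of all promoters of that length. The letters TCACNCCAC, one form of the sterol regulatory element, occurred in 0 of the 13 and in 1.04% of all. Idi1 lies on the plus strand at chr13:8885356-8885605 and Msmo1 on the minus strand at chr8:64733579-64733828 of GRCm38.p6, with CCAAT or its complement in capitals.
Idi1: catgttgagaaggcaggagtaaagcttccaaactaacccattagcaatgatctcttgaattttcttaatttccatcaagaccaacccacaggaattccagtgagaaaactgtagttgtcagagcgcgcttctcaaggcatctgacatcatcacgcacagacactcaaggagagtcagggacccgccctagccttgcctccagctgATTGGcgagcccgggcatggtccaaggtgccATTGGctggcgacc
Msmo1: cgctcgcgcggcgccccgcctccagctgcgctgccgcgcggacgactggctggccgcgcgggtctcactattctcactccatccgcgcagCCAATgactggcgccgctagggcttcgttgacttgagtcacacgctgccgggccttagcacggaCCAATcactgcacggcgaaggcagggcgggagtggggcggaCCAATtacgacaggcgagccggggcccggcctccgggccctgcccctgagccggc
Idi1, isopentenyl diphosphate isomerase, differed by -0.61 and Msmo1, a sterol demethylase, by -0.57. The 1 promoter without the box belonged to Dhcr7, the gene with the largest difference of the list.

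Of 36 measured interferon-induced genes, 30 lay below 0 by value and 6 above 0 with all arrays, and 10 lay above 0 without the 2. Over all rows 47.9% lay above 0 with all arrays and 49.6% without the 2. The median was -0.13 (-0.11 without the 2 arrays), and 2 fell with all arrays, Rtp4 and Isg15. Isg15, a ubiquitin-like modifier, read -0.96, -0.81 and -0.88 on Day 10, against 0.23, 0.28 and -0.32 on Day 5. Day 5 replicate 3 was the nearest to Day 10. It fell by 0.95 (limma adjusted p = 0.0404), a call lost without the 2 arrays (-0.84, adjusted p = 0.108). In 7 genes (19.4%) all Day 10 arrays lay below those of Day 5, against 6.68% of all rows. Eif2ak2, the RNA-activated kinase PKR, differed by -0.66 (-0.62 without the 2 arrays), and the transcription factors of the pathway, Stat2, Irf7 and Irf9, by -0.62, -0.55 and -0.42 (-0.54, -0.52 and -0.50). The class I antigen genes lay above 0, H2-D1 at 0.80 (0.46 without the 2) and B2m at 0.45 (0.36), both with Day 10 arrays above those of Day 5. They were the 2 genes of the list (5.56%) that did so, against 6.11% of all rows. The Isg15 promoter is printed because it carries the interferon-stimulated response element, searched on both strands as a pair of GAAA with any 2 bases between them, in 3 overlapping copies from -78 to -57, in capitals. It lies on the minus strand at chr4:156200819-156201068 of GRCm38.p6.
Isg15: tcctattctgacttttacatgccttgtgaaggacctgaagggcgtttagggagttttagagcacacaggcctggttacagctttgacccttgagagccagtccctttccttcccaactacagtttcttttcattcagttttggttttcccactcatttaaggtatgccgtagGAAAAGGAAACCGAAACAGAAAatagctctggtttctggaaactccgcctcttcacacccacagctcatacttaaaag
The element occurred in 12 of 29 promoters of the list (41.4%) and in 3.04% of all.

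The medians of cell division genes and Atf4 targets changed sign when Day 10 replicate 3 was left out, alone or with Day 5 replicate 2. Without Day 10 replicate 3 alone they were 0.07 for mitosis, 0.09 for DNA replication and -0.12 for Atf4 targets. Without Day 5 replicate 2 alone they kept their sign, at -0.21, -0.05 and 0.11 in the same order. The mitosis list, 44 genes, had a median level of -0.86, -0.89 and -2.27 on Day 10, against -1.17, -0.77 and -0.64 on Day 5. With all arrays its median difference was -0.29, and without the 2 arrays it was 0.16, with 33 genes above 0. The DNA replication list, 47 genes, turned likewise, at -0.14 and 0.13. By limma 0 genes of either list passed, with 6 and 4 at an unadjusted p under 0.05, which 8.99% of all rows had. Mki67, the proliferation marker, read -2.15, -2.05 and -3.49 on Day 10, against -2.20, -1.43 and -1.92 on Day 5, and Nuf2, a kinetochore protein, -0.59, -0.23 and -2.29 on Day 10, against -0.70, -0.12 and -0.08 on Day 5. The list of 31 genes of amino acid supply and stress that the factor Atf4 induces had a median level of -0.82, -0.98 and -0.18 on Day 10, against -0.56, -0.71 and -0.94 on Day 5. By limma 0 passed, with 4 at an unadjusted p under 0.05, and the median difference was 0.08, or -0.16 without the 2 arrays. Trib3 and Nupr1 were among the 3 members with the largest differences, and both were high on Day 10 replicate 3. Trib3, a pseudokinase, read -2.69, -2.12 and 0.50 on Day 10, against -1.35, -2.74 and -2.95 on Day 5, and Nupr1, a stress-induced nuclear protein, -0.78, -0.57 and 2.53 on Day 10, against -0.75, -0.43 and -1.10 on Day 5. Their differences were 0.91 and 1.15, and -0.26 and 0.25 without the 2 arrays. What these levels contribute to the calls of other genes was not tested beyond the fits without this array.

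**Figure D4:**
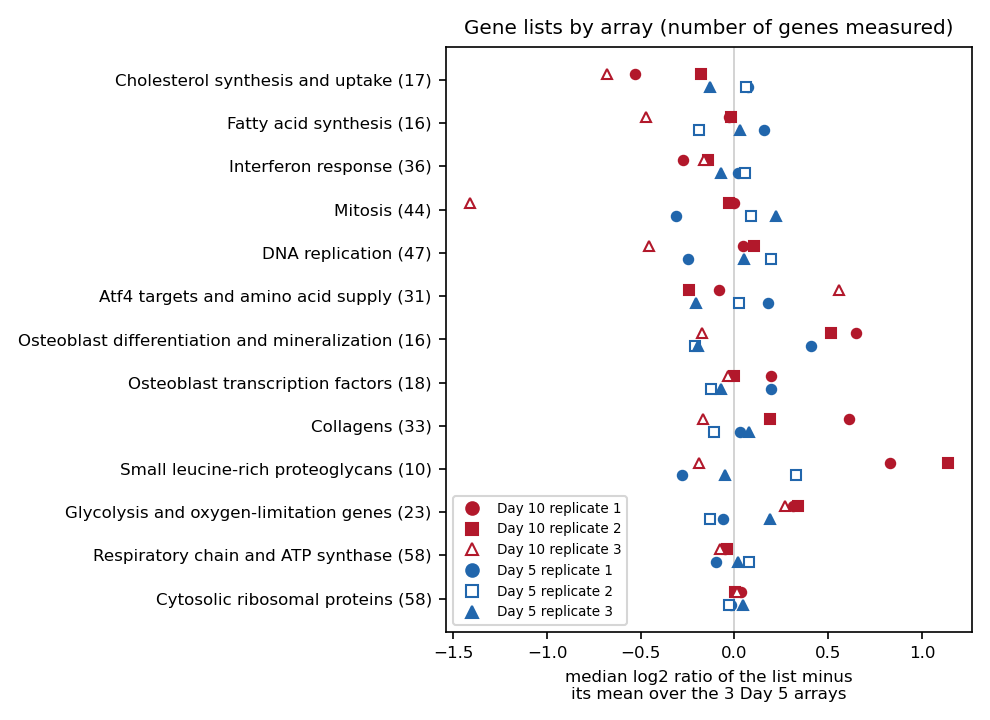
Median log2 ratio of 13 gene lists on each array, minus the list's mean over the 3 Day 5 arrays, with Day 10 in red above Day 5 in blue and open symbols for the arrays that stood apart. The open triangle of Day 10 replicate 3 lies far below the others for mitosis and above them for Atf4 targets, while all Day 10 arrays lie below all Day 5 arrays for cholesterol synthesis.

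Markers of adipocytes, chondrocytes, smooth muscle, macrophages, osteoclasts and endothelium gave no call. The medians were -0.06 for 16 adipocyte, -0.01 for 19 chondrocyte, 0.01 for 16 smooth muscle, -0.10 for 23 macrophage and osteoclast and -0.07 for 14 endothelial markers, and 0 genes of these lists passed by limma, with 0, 2, 0, 4 and 2 at an unadjusted p under 0.05. Such a p was found for 8.99% of all rows. Without the 2 arrays the medians were -0.13, 0.03, 0.12, -0.12 and -0.02 in the same order. Single markers ranged from -0.45 to 0.21 for adipocytes, -0.56 to 1.07 for chondrocytes, -0.48 to 0.35 for smooth muscle, -0.69 to 0.77 for macrophages and osteoclasts and -0.50 to 0.41 for endothelium. Among them Lpl, lipoprotein lipase of adipocytes, differed by -0.45 (-0.66 without the 2), Fcer1g, an Fc receptor chain of myeloid cells, by -0.65 (-0.78) and Cdh5, the endothelial cadherin, by 0.41 (0.57). The highest chondrocyte marker was Col11a1, which bone also makes, and Acan, the cartilage proteoglycan, stood at -0.21 (-0.44). Glycolysis and oxygen-limitation genes had a median of 0.20 over 23 genes, which was 0.07 without the 2 arrays, and Higd1a, a hypoxia-induced mitochondrial protein, differed by 1.00 (adjusted p = 0.0685, and 0.85 without the 2). Respiratory chain genes had a median of -0.06 over 58 (0.00 without the 2 arrays) and cytosolic ribosomal proteins of 0.02 over 58 (0.05), with 0 past by limma and 4 and 10 at an unadjusted p under 0.05. Among antioxidant genes Sod3, the extracellular superoxide dismutase, differed by 1.06 (adjusted p = 0.066, and 0.75 without the 2), and among chemokines Ccl5 differed by 0.97 (adjusted p = 0.0642, and 1.03 without the 2).

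The Day 2 and Day 28 arrays, 3 each, place these genes in the course of culture, as levels with no further test. F13a1 had Day 2 and Day 5 means of -0.27 ± 0.22 and 1.00 ± 0.44, then 4.71 ± 1.11 at Day 10 and 8.54 ± 0.27 at Day 28 (SD, n = 3). The Day 28 means of Mmp13 (8.00), Igf2 (4.06), Apod (8.14) and Cd200 (5.45) were likewise higher than any Day 10 array. Agt and Mfap5 differed less between the last days. From Day 2 to Day 28, the Agt means were 0.40, 2.43, 4.05 and 3.65, and the Mfap5 means 0.60, 0.52, 2.25 and 2.80. C1qtnf3 had its highest mean on Day 10, the 4 means being 0.10 ± 0.11, 0.17 ± 0.22, 1.86 ± 1.04 and 0.99 ± 0.14 in order of time (SD, n = 3), and its Day 10 replicate 3 lay below the Day 28 arrays. Tnnc1 was highest on Day 5, its means in order of time being 2.37, 4.12, 2.72 and 1.92. Rtp4 was also highest on Day 5, with -0.64, 0.11, -1.08 and -0.98 in the same order.

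**Figure D5:**
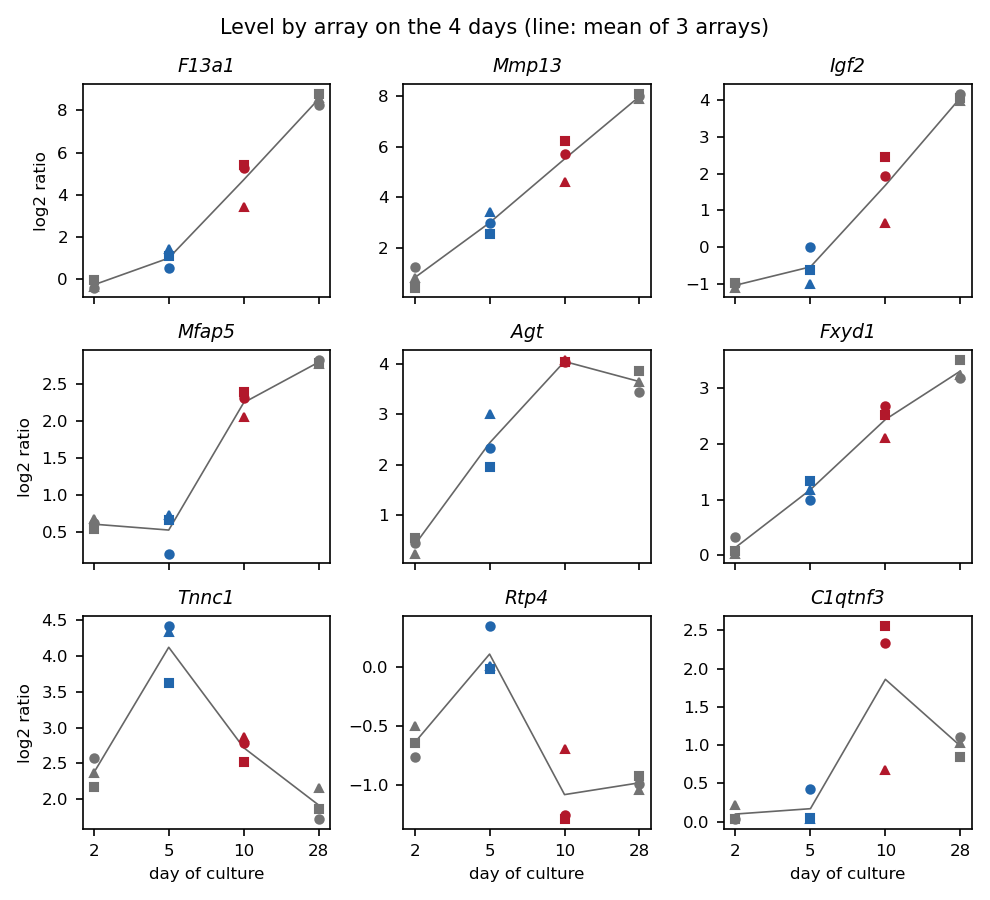
Log2 ratio to the reference RNA by array (circle, square and triangle for replicates 1, 2 and 3) on Day 2, 5, 10 and 28, spaced evenly on the x axis, for 9 genes, with a line through the means. F13a1, Mmp13 and Igf2 go on upward to Day 28, Tnnc1 and Rtp4 peak on Day 5, and C1qtnf3 has its highest mean on Day 10.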

How the data were processed

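The authors deposited 1 log ratio per spot and array, taken here as log2, for 17664 rows and 12 arrays of the Operon mouse oligo set. R version 2.13.0 is named in the submitters' processing notes. Not given in the sources used here are background correction, within-array normalization, handling of weak spots, log base and ratio direction. No spot intensities were used, so weak and bright spots could not be told apart. Groups and replicate numbers came from the labels.

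Each array was centred on its median (deposited medians lay within 0.0132 of 0). Spots of 10 genes printed 17 times were averaged, leaving 17504 rows. Rows were named from the platform annotation and RefSeq GRCm38.p6 symbols. Of the deposited rows, 14010 had 1 gene, 13 several and 3641 none, and 13908 matched RefSeq. A gene with several rows is given in a list by its lowest-numbered row. The limma package (3.58.1, lmFit and eBayes, under R 4.3.3) fitted 1 mean per day to all 12 arrays, with 8 residual and 5.23 prior degrees of freedom, and Benjamini-Hochberg adjustment over all rows at 0.05. Differences are Day 10 minus Day 5. The fit was also run on simulated data in which a row had the same SD on every array. That setting does not cover arrays that stand apart. The number of arrays, 3 per day, limits the precision.

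The comparison and its 36 gene lists were chosen with earlier results of these data known, so list counts and medians are descriptions. Genes named in the text are every gene past the threshold and, beyond these, genes taken from among the 15 largest rises and falls past it without Day 10 replicate 3 and Day 5 replicate 2 (fewer falls passed), the 4 members of a list with the largest differences, and any member of the osteoblast, collagen, cholesterol, interferon, insulin-like growth factor and complement lists. Promoters came from RefSeq's table, in which Mfap5, Rtp4 and Fdps were not matched.

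Alternatives were quantile normalization, equal spread of the arrays, only the 6 arrays, each array left out, both arrays that stood apart left out, a replicate block, array weights, rows of a gene averaged, only rows with 1 gene, and robust moderation.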

Additional observations from a re-analysis of the deposited data

How the results depend on the processing

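Of 17504 rows, 26 passed with all arrays, 52 without Day 10 replicate 3 and Day 5 replicate 2, and 17 with rows of a gene averaged. With limma on the 6 arrays alone 0 passed, with 1101 at an unadjusted p under 0.05, and leaving out 1 array at a time gave 1 to 83. With the replicate number as a block 13 passed. Same-numbered arrays of the 2 days did not deviate together (correlations of 0.205, -0.230 and -0.271 for replicates 1, 2 and 3), so the numbers were not taken as pairs. The highest correlation between the days, 0.394, was that of Day 10 replicate 3 with Day 5 replicate 2. The count moved by at most 1.5 times with quantile normalization, equal spread, array weights, rows with 1 gene only and robust moderation. The genes called changed as well. Under quantile normalization 18 of the 26 calls remained, and Apod, Tns1, Arrdc5, Zbtb11os1, Lbh, Cgref1, Isg15 and Dpysl2 missed. Arrdc5 and Lbh missed with equal spread, Arrdc5 with array weights and Cd200 with robust moderation. The cause of these changes was not tested. No named gene past the threshold changed sign under the 21 alternatives, which reuse the same arrays and are no independent check. Genes that did change sign had not passed. Sp7 was -0.05 after quantile normalization and -0.03 without Day 10 replicate 2. Alpl was -0.02 after quantile normalization and ranged from -0.30 to 0.73 when 1 array was left out. Igf1 was 0.13 with equal spread, 0.25 with array weights, 0.27 without both arrays and ranged from -0.39 to 0.56 when 1 array was left out. Trib3 was -0.26 without both arrays and -0.06 without Day 10 replicate 3. With 3 arrays a day and no spot intensities, signal over background and small differences could not be judged.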
